A study of Danio rerio with 14 samples.

Results

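The step from early to 7-day regrowth was followed at the distal tip of zebrafish (Danio rerio) fin rays. Libraries at 7 days post amputation (dpa) were compared with libraries at 3 dpa, and the members are the genes measured across both times. A gene was kept where it reached 1 CPM (a read count expressed per unit of sequencing depth) in at least 2 of these 6 libraries. This left 10986 of the 14836 genes in the table, with no use of the difference between times. Of the 3850 genes left out, 1155 were at 0 in all 6 libraries. The kept genes nearest the limit were si:dkey-21e2.16, tex9 and gipc3, with second-highest values of 1.0039 CPM, 1.0049 CPM and 1.005 CPM. The nearest genes left out were nme4, zgc:113983 and asb13a.1, at 0.99977 CPM, 0.99966 CPM and 0.99955 CPM. Among the kept genes, 148 were under 1 CPM in every 3 dpa library and 103 in every 7 dpa library, so these had passed through 1 time alone.

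All animals were wild type by their labels, with no allele, agent or age named in the sources used here. A strip of about 250 µm from the end of each ray was taken, and the rays of 10 animals were pooled for each library. Each time had 3 pools, except 14 dpa with 2, and the other times were 0, 10 and 14 dpa. The labels name the early time 3 dpa, while the design text gives 3.5 days. A pool averages its animals, so the spread below is between pools. The strip also holds tissue of another position in the regrowing ray at each time, which cannot be told apart from time.

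After amputation, epidermis closes over the stump and a blastema, a mound of proliferating fibroblast and bone-forming progenitors, gathers beneath it. Fgf, Wnt, retinoic acid and activin signals from the blastema and the overlying epidermis keep it growing outward. Its distal fibroblasts lay down actinotrichia, unmineralised collagen spines that carry the growing edge. Osteoblasts behind them form the bony ray, and vessels, nerves and pigment cells follow.

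The 6 libraries corresponded to about 14900000 to 16000000 reads, derived from the smallest step between values. Transcripts of collagen-making cells, bone, epidermis, macrophages and pigment cells were all present, as were col1a1a, sp7, tp63, krt4, mpeg1.1 and pmela. The skeletal muscle markers acta1b and myhz2 were below the filter. The muscle marker ckma passed it, at 3.08 to 3.81 CPM at 3 dpa and 0.728 to 1.18 CPM at 7 dpa. Of 8 muscle list genes that passed the filter, 3 were higher and 2 lower at 7 dpa by the test given below. Libraries of 1 time correlated across genes at 0.977 to 0.987 at 3 dpa and 0.950 to 0.984 at 7 dpa, and none were identical. Libraries of different times correlated at 0.923 to 0.964, a range that overlapped that within 7 dpa. The second replicate at 7 dpa stood apart, as did 0 dpa replicate 1 and 10 dpa replicates 2 and 3. The immediate early gene fosb, a transcription factor induced within minutes of a stimulus, read 68.7, 1702 and 64.8 CPM at 7 dpa against 102, 41.1 and 23.05 CPM at 3 dpa. On the second principal component, which held 27.8% of the variance among the 6 libraries, this library lay at 36.6 and 7 dpa replicate 3, the farthest on the other side, at -31.4.

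Of the 10986 genes, 1896 (17.3%) differed between 7 and 3 dpa (limma on log2(CPM + 1), Benjamini-Hochberg adjusted p under 0.05). At 7 dpa 1027 (9.35%) were higher and 869 (7.91%) were lower, while the median over all genes was a log2 change of -0.04. A log2 change is on the log2(CPM + 1) scale, where changes of low genes come out too small, and is followed by its standard error. Among the called genes 507 rose and 226 fell by at least 1 on this scale, and 10 rose and 7 fell by at least 3. Without the second 7 dpa library 1580 genes were called, and the count over leaving out each library in turn was 1324 to 1580. The 869 falls became 547 with 3 dpa replicate 1 left out. Lost calls given below are those on leaving out 1 library, unless another setting is named, and some of these genes also lost their call under other settings. The shares of list members given below are to be read against these 9.35% and 7.91%. The libraries of both times did not overlap in 15.7% of all genes with 7 dpa higher and in 18.7% with 7 dpa lower, and the 14 largest rises and falls were chosen among such genes. Of the called genes 134, of which 22 are on a list, were under 1 CPM in every library of 1 time and so had been kept through the time where they were high. Of the 148 genes kept through 7 dpa alone 76 were called, and of the 103 kept through 3 dpa alone 58. The filter favours a difference in such genes. They are given below as values without a test, with the counts of their lists also without them. The 14 largest falls, chosen among called genes, included etf1a of this kind, and the 14 largest rises olfml2ba. In bulk tissue, fewer cells of a type and less RNA per cell cannot be told apart.

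**Figure D1:**
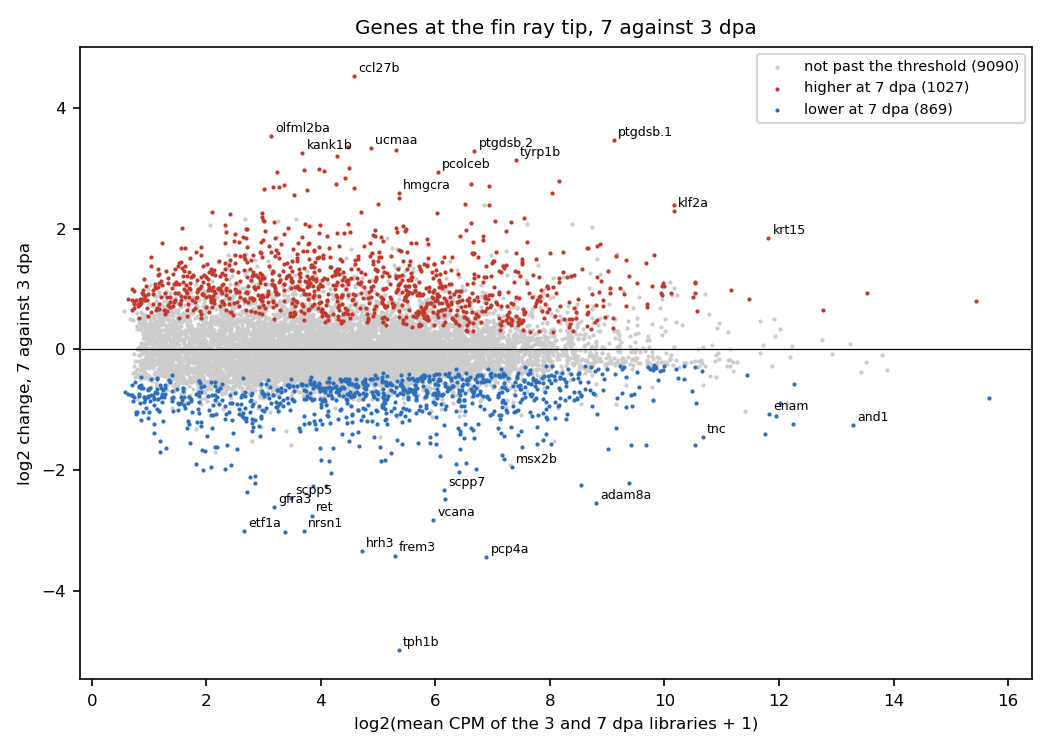
Each point is 1 of the 10986 genes, with log2 of the mean CPM of the 6 libraries plus 1 on the x axis and the log2 change from 3 to 7 dpa on the y axis. The 1027 genes higher at 7 dpa (red) and the 869 lower (blue) spread over the whole range of levels, and tph1b and ccl27b lie at the extremes.

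The largest fall was that of tph1b, which encodes tryptophan hydroxylase, the enzyme that commits tryptophan to serotonin. Its values were 61.1, 86.1 and 89.5 CPM at 3 dpa and 1.25, 1.01 and 2.45 CPM at 7 dpa, a log2 change of -4.98 ± 0.22, adjusted p = 8.65e-08 (limma). It had read 0.335 to 0.405 CPM at 0 dpa and read 0.729 to 1.198 CPM at 10 dpa and 1.33 to 1.75 CPM at 14 dpa, so the high values were those of the 3 dpa libraries. The calmodulin-binding peptide gene pcp4a read 232, 200.2 and 215 CPM at 3 dpa and 20.99, 20.54 and 15.7 CPM at 7 dpa, with a change of -3.44 ± 0.15, adjusted p = 8.65e-08 (limma). It kept 14.01 to 15.7 CPM at 10 dpa and 5.45 to 6.72 CPM at 14 dpa, against 3.96 to 4.45 CPM at 0 dpa. The libraries of both times were far apart for these genes, which were chosen among genes without overlap.

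The next largest falls included genes of receptors. The histamine receptor gene hrh3 read 60.8, 40.03 and 39.98 CPM at 3 dpa and 3.75, 5.16 and 2.45 CPM at 7 dpa and changed by -3.34 ± 0.35. The receptor tyrosine kinase gene ret read 16.97 to 29.1 CPM at 3 dpa and 1.72 to 4.29 CPM at 7 dpa (-2.75 ± 0.27), and gfra3, which encodes a co-receptor that in mammals presents a neurotrophic ligand to Ret, read 9.24 to 20.3 CPM at 3 dpa and 0.529 to 2.48 CPM at 7 dpa (-2.61 ± 0.30). The neuronal vesicle gene nrsn1 fell by 3.01 ± 0.23 and the potassium channel gene kcnma1a by 2.35 ± 0.25 on the log2 scale. Their adjusted p lay between 8.69e-06 and 1.20e-04 (limma). The glia and nerve list as a whole did not move one way: 8 of its 28 tested members rose and 4 fell, with a median of 0.28. Without members kept through 1 time alone, plp1a and snap25b among them, 6 rose and 2 fell. Those that rose included foxd3 and sox10, transcription factors of neural crest and its glial and pigment descendants, and the nerve gene sncga. The others that fell were stmn2b and tubb5, of which tubb5 fell by 1.403 ± 0.24. The call was lost for stmn2b without 3 dpa replicates 1 or 2 (adjusted p = 0.053 to 0.059), and with a pseudocount of 0.1 (adjusted p = 0.12).

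**Figure D2:**
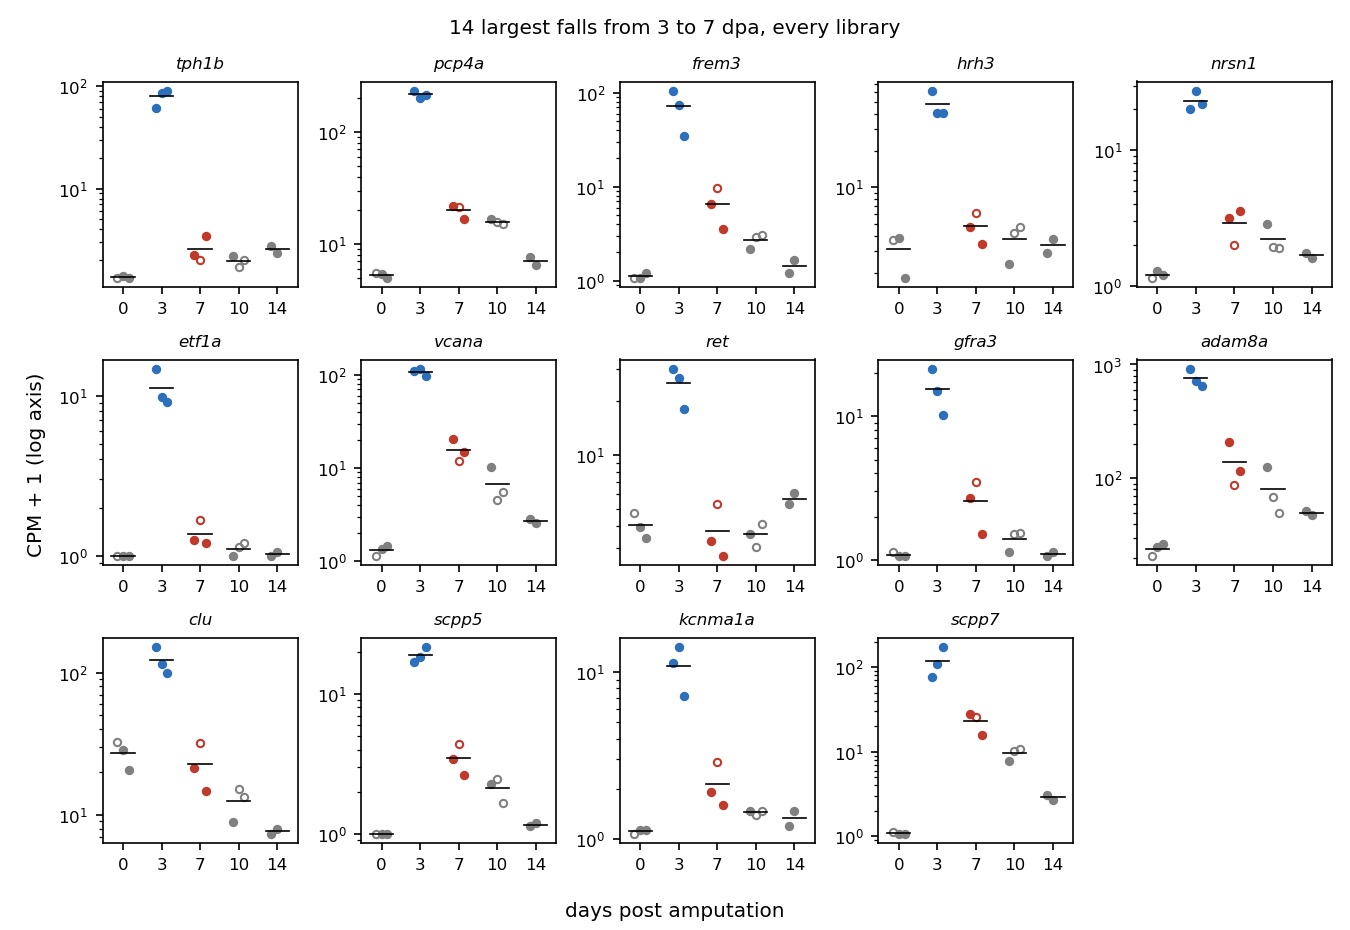
CPM plus 1 of the genes with the largest falls (log axis) in every library against days post amputation, with 3 dpa in blue, 7 dpa in red, other times in grey, bars at the means and open symbols for 4 libraries that stand apart. In every panel the 3 dpa libraries lie above all 7 dpa libraries, which was a condition of choice. The gene etf1a was kept through 3 dpa alone, so the filter favoured its fall. The values of tph1b drop from 61.1 to 89.5 CPM to at most 2.45 CPM.

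Genes of the early blastema fell on balance. Of 23 tested list members 11 fell and 2 rose, with a median of -0.65 against -0.04 for all genes. The growth factor gene fgf20a, needed to start the zebrafish blastema, read 21.7, 26.8 and 33.3 CPM at 3 dpa and 3.35, 6.297 and 5.16 CPM at 7 dpa, a change of -2.26 ± 0.27, adjusted p = 1.59e-04 (limma). Midkine (mdka), a heparin-binding growth factor, read 2469, 2156 and 2029.7 CPM at 3 dpa and 828, 753 and 649 CPM at 7 dpa, a change of -1.58 ± 0.15, adjusted p = 2.95e-05. The retinoic acid synthesis gene aldh1a2 read 140.3, 111 and 118 CPM at 3 dpa and 44.9, 52.7 and 44.7 CPM at 7 dpa, a change of -1.35 ± 0.16, adjusted p = 1.59e-04. All 3 genes were lower in every 7 dpa library than in any 3 dpa library. The gap junction gene cx43, whose mutation shortens zebrafish fin segments, read 390.0 to 391.95 CPM at 3 dpa and 201 to 234 CPM at 7 dpa (-0.84 ± 0.16). The leptin gene lepb, an early regeneration marker, read 86.2 to 195 CPM at 3 dpa and 11.8 to 54.5 CPM at 7 dpa (-2.03 ± 0.53), igf2b changed by -0.65 ± 0.18 and socs3b by -0.76 ± 0.24. The calls were lost for lepb without 3 dpa replicates 1 or 3 or 7 dpa replicate 3 (adjusted p = 0.051 to 0.080), igf2b without 3 dpa replicates 1 or 2 or 7 dpa replicates 1 or 3 (adjusted p = 0.074 to 0.084) and socs3b without 3 dpa replicates 1, 2 or 3 or 7 dpa replicates 1 or 3 (adjusted p = 0.058 to 0.17). With a pseudocount of 0.1 lepb lost its call too (adjusted p = 0.061). The libraries of socs3b overlapped between times. The number of falling members was 7 with 3 dpa replicates 2 or 3 or 7 dpa replicate 3 left out. The rising count was 1 with 3 dpa replicates 2 or 3 or 7 dpa replicate 2 left out. The rising members were tgfbi, a matrix protein induced by Tgfb (0.62 ± 0.12), and and3, described with the actinotrichia.

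Homeobox genes of the msx family, which mark undifferentiated distal cells, and of the dlx family were among the falls. None of the 48 tested patterning factors rose and 9 fell. The gene msx2b read 192, 279 and 287 CPM at 3 dpa and 88.3, 37.9 and 77.5 CPM at 7 dpa, a change of -1.94 ± 0.37, adjusted p = 0.0032 (limma). Its relative msx2a read 19.5, 27.4 and 31.6 CPM at 3 dpa and 7.36, 3.42 and 10.19 CPM at 7 dpa, a change of -1.84 ± 0.37, adjusted p = 0.0048. Both were lower in all 7 dpa libraries than in any 3 dpa library, and the second 7 dpa library gave the lowest value of each. The smaller falls of msx1b (-0.89 ± 0.28), msx3 (-1.09 ± 0.27) and dlx5a (-1.33 ± 0.38) depended on single libraries: the calls were lost for msx1b without 3 dpa replicates 2 or 3 or 7 dpa replicates 1, 2 or 3 (adjusted p = 0.054 to 0.16), msx3 without 3 dpa replicates 2 or 3 or 7 dpa replicate 2 (adjusted p = 0.053 to 0.062) and dlx5a without 3 dpa replicates 2 or 3 or 7 dpa replicate 2 (adjusted p = 0.098 to 0.12). The list count was 2 with 3 dpa replicates 2 or 3 left out, 3 with 7 dpa replicate 2 left out and 5 with 7 dpa replicates 1 or 3 left out. The distal epidermal transcription factor gene sp8b likewise changed by -1.46 ± 0.42, and lost its call without 3 dpa replicates 2 or 3 or 7 dpa replicates 1 or 2 (adjusted p = 0.074 to 0.1).

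Some Fgf ligand genes fell. Besides fgf20a, fgf3 read 8.33 to 11.7 CPM at 3 dpa and 3.44 to 5.66 CPM at 7 dpa, a change of -1.02 ± 0.19, adjusted p = 0.0027 (limma), and fgf4, at 2.25 to 2.51 CPM at 3 dpa and 0.402 to 1.26 CPM at 7 dpa, changed by -0.86 ± 0.22. The call was lost for fgf4 without 3 dpa replicate 2 or 7 dpa replicate 2 (adjusted p = 0.052 to 0.059), and with a pseudocount of 0.1 (adjusted p = 0.14). In the opposite direction fgf18a read 2.43, 1.58 and 2.38 CPM at 3 dpa and 5.47, 7.95 and 4.77 CPM at 7 dpa, a change of 1.16 ± 0.22, adjusted p = 0.0036. The ligand gene fgf22, kept through 7 dpa alone, read 0.128, 0.252 and 0.314 CPM at 3 dpa and 1.51, 1.203 and 0.861 CPM at 7 dpa. In total, 3 of 13 tested ligands fell and 2 were higher, or 1 without fgf22. The others, fgf2, fgf7, fgf10a, fgf10b, fgf13a, fgf16, fgf20b and fgf24, had changes between -0.62 and 0.27 that did not pass the test.

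Few genes of Erk kinase feedback passed the test. Of 23 tested genes induced by or acting on Erk 1 rose (4.35%, against 9.35% of all genes) and 2 fell (8.70%, against 7.91%). The rising gene was dusp7, an Erk phosphatase, at 141 to 151 CPM at 3 dpa and 218 to 229 CPM at 7 dpa (0.59 ± 0.08, adjusted p = 5.34e-04; limma). The Myc gene myca fell, at 118 to 122 CPM at 3 dpa and 45.97 to 69.9 CPM at 7 dpa (-1.01 ± 0.18), as did the Ets factor gene etv5b, at 154 to 189.8 CPM at 3 dpa and 87.4 to 115 CPM at 7 dpa (-0.79 ± 0.22). The call was lost for etv5b without 3 dpa replicates 2 or 3 or 7 dpa replicates 2 or 3 (adjusted p = 0.065 to 0.085), and the count of falling genes was 1 with 3 dpa replicates 2 or 3 or 7 dpa replicates 2 or 3 left out. The count of rising genes was 2 with 7 dpa replicates 1 or 3 left out, and 3 with median-of-ratios scaling or quantile normalization. Spry1, spry2 and spry4, inhibitors of the pathway, had changes of -0.46 ± 0.28, -0.16 ± 0.19 and 0.10 ± 0.34, and none passed. The Erk phosphatase gene dusp5 read 153, 78.3 and 78.9 CPM and 129, 222 and 41.5 CPM at 3 and 7 dpa, a spread between pools wider than the difference between times.

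In the lists of other signalling pathways most members did not pass the test. The shares of 11.11% of Wnt genes rising, 10.0% of Bmp genes rising and 9.09% of retinoic acid genes falling were near those of all genes. The falling shares of 22.2% of Wnt genes and 17.5% of Bmp genes were above the 7.91% of all genes. Of retinoic acid genes 13.6% rose, against 9.35% of all genes. Of 36 tested Wnt genes 8 fell and 4 rose, or 7 and 3 without those kept through 1 time alone. The secreted antagonist gene sfrp2 read 15.2, 26.04 and 27.14 CPM at 3 dpa and 3.74, 8.71 and 7.87 CPM at 7 dpa, a change of -1.64 ± 0.29, adjusted p = 0.0024 (limma). Among those that rose, notum1a, which encodes a Wnt-inactivating lipase, changed by 1.39 ± 0.35, with the call lost for notum1a without 3 dpa replicate 1 or 7 dpa replicate 3 (adjusted p = 0.052 to 0.067). The count of rising Wnt genes was 2 with 3 dpa replicate 1 or 7 dpa replicate 3 left out. Of 40 Bmp, Tgfb and activin genes 7 fell (5 without those kept through 3 dpa alone), among them the Bmp antagonist chrd (-1.61 ± 0.31), the decoy receptor bambia (-1.44 ± 0.27) and the activin subunit inhbab (-1.01 ± 0.21). The activin subunit gene inhbaa, with a log2 change of -0.41, did not pass (adjusted p = 0.22, limma). The skeletal Bmp gene bmp3 was one of 4 that rose (3 without those kept through 7 dpa alone), at 10.9 to 18.3 CPM at 3 dpa and 35.7 to 54.8 CPM at 7 dpa (1.42 ± 0.29). The count of 4 was 2 with 3 dpa replicates 2 or 3 or 7 dpa replicate 2 left out. In the retinoic acid list the binding-protein genes parted: crabp2b fell (-1.24 ± 0.24) while crabp1b (1.03 ± 0.20) and the retinol carrier rbp4 (1.98 ± 0.40) rose. None of 14 Hedgehog genes passed the test, and their median was -0.12.

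The matrix under the early regenerate also changed. The Fraser complex anchors epidermis to the tissue below, and its genes frem3 and frem2a fell by 3.41 ± 0.40 and 1.98 ± 0.39. The values of frem3 were 104, 73.9 and 33.9 CPM at 3 dpa and 5.52, 8.72 and 2.58 CPM at 7 dpa, and those of frem2a 223, 196 and 79.7 CPM at 3 dpa and 37.2, 62.1 and 23.1 CPM at 7 dpa. The versican gene vcana, a hyaluronan-binding proteoglycan of loose tissue, read 111, 116 and 97.2 CPM at 3 dpa and 19.3, 10.99 and 13.9 CPM at 7 dpa, a change of -2.82 ± 0.28, adjusted p = 4.99e-05 (limma). The hyaluronan synthase gene has2, named after its values were seen, read 19.8 to 33.4 CPM at 3 dpa and 4.23 to 9.001 CPM at 7 dpa (-2.05 ± 0.32). The laminin gene lama1 changed by -1.62 ± 0.39, and lost its call without 3 dpa replicates 1 or 2 (adjusted p = 0.058 to 0.059). Basement membrane genes as a list parted evenly, 5 of 26 falling and 5 rising. The hemidesmosome collagen gene col17a1a rose, at 47.5, 40.2 and 49.97 CPM at 3 dpa and 136, 319 and 191 CPM at 7 dpa (2.12 ± 0.29, adjusted p = 4.20e-04). The falling count was 3 with 3 dpa replicates 1 or 2 left out, and the rising count was 3 with 3 dpa replicates 1, 2 or 3 or 7 dpa replicates 1 or 2 left out.

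Interstitial matrix genes moved in both directions: 14 of 50 rose (13 without col15a1b, kept through 7 dpa alone), 11 fell and the median was 0.01, which quantile normalization moved to -0.02. Thrombospondin 3 (thbs3b), a secreted matrix protein, read 8.32, 5.73 and 3.18 CPM at 3 dpa and 43.1, 44.4 and 32.5 CPM at 7 dpa, a change of 2.67 ± 0.27, adjusted p = 5.62e-05 (limma). The matrilin gene matn4 read 37.3, 42.2 and 33.8 CPM at 3 dpa and 239, 213 and 159.9 CPM at 7 dpa, a change of 2.39 ± 0.19, adjusted p = 8.69e-06. The elastin gene elna, at 0.749 to 2.86 CPM at 3 dpa and 7.29 to 17.5 CPM at 7 dpa, changed by 2.14 ± 0.31. The procollagen enhancer gene pcolceb, which speeds the cutting of the collagen propeptide, read 13.5, 12.9 and 16.2 CPM at 3 dpa and 106, 131 and 109 CPM at 7 dpa, a change of 2.94 ± 0.15, adjusted p = 2.62e-07. The cutting enzyme gene itself, bmp1a, fell, at 494 to 720.4 CPM at 3 dpa and 262 to 320.3 CPM at 7 dpa (-1.07 ± 0.18). The crosslinking enzyme gene loxl1 rose, at 4.37 to 6.48 CPM at 3 dpa and 14.3 to 15.9 CPM at 7 dpa (1.29 ± 0.17), while loxa, loxl2b and plod1a fell. For plod1a (-1.12 ± 0.32) the call was lost without 3 dpa replicates 1 or 2 or 7 dpa replicates 1 or 3 (adjusted p = 0.064 to 0.11).

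Of 8 tested actinotrichia genes 4 fell and 1 rose. The actinodin gene and2, a structural protein of these spines, read 5300.5, 4787 and 4815 CPM at 3 dpa and 2030.3, 2335 and 1409 CPM at 7 dpa, a change of -1.397 ± 0.31, adjusted p = 0.0082 (limma). Its relative and1 read 15444, 13439 and 13368 CPM at 3 dpa and 6485, 7429 and 4279.7 CPM at 7 dpa and changed by -1.25 ± 0.31. The collagen gene col9a1a read 17.4 to 24.2 CPM at 3 dpa and 4.96 to 11.2 CPM at 7 dpa (-1.17 ± 0.27) and col1a1a 54655 to 72157 CPM at 3 dpa and 27698 to 46808 CPM at 7 dpa (-0.80 ± 0.21). In contrast and3 read 8.65, 6.47 and 5.19 CPM at 3 dpa and 29.7, 61.4 and 16.2 CPM at 7 dpa, a change of 2.07 ± 0.52, with its highest value in the second 7 dpa library. Calls were lost for and1 without 3 dpa replicate 1 or 7 dpa replicate 3 (adjusted p = 0.054 to 0.062), col1a1a without 3 dpa replicates 1 or 2 or 7 dpa replicate 3 (adjusted p = 0.067 to 0.075) and and3 without 3 dpa replicates 2 or 3 or 7 dpa replicate 2 (adjusted p = 0.050 to 0.064). The fibrillar collagen genes col1a2 and col2a1b changed by -0.21 ± 0.19 and 0.31 ± 0.26 and did not pass. The number of falling members was 2 with 3 dpa replicate 1 or 7 dpa replicate 3 left out.

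Many genes of protein secretion fell. Of 68 tested genes of the endoplasmic reticulum and its vesicle traffic 35 fell and none rose, with a median of -0.69. The gene fkbp9, for a prolyl isomerase of the endoplasmic reticulum, read 1137, 999 and 923 CPM at 3 dpa and 388, 391 and 259 CPM at 7 dpa, a change of -1.58 ± 0.22, adjusted p = 4.19e-04 (limma), and fkbp7 changed by -1.24 ± 0.20. The collagen chaperone serpinh1a read 513, 426 and 336 CPM at 3 dpa and 212, 234 and 132 CPM at 7 dpa, a change of -1.16 ± 0.26, adjusted p = 0.0088. The translocon-associated gene ssr4 read 387, 342 and 395 CPM at 3 dpa and 186, 172 and 151 CPM at 7 dpa, a change of -1.14 ± 0.14, adjusted p = 1.50e-04. The members that fell thus included a collagen chaperone, a prolyl isomerase and a translocon-associated gene. No libraries of fkbp9, serpinh1a and ssr4 overlapped between times. Summed over the list, the level was 17961 to 22237 CPM at 3 dpa and 11064 to 14519 CPM at 7 dpa. Without 7 dpa replicate 2 or 3, 1 member rose.

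Smaller falls were found among genes of protein turnover, translation and respiration, and those of ribosomal proteins depended on the setting. In the proteasome list 19 of 37 genes fell and none rose, with the subunit gene psmb7 at 129 to 165 CPM at 3 dpa and 68.8 to 79.8 CPM at 7 dpa (-0.93 ± 0.18). The proteasome count was 10 with 3 dpa replicate 3 or 7 dpa replicate 2 left out, and 12 with median-of-ratios scaling. Of 75 ribosomal protein genes 15 fell, rps20 by 0.62 ± 0.10, and of 68 respiratory chain genes 14, cox7a2a by 0.67 ± 0.12. For ribosomal proteins the count was 3 with 7 dpa replicate 1 left out, 4 with 3 dpa replicate 3 left out, 6 with 3 dpa replicate 1 or 7 dpa replicate 2 left out, 8 with 7 dpa replicate 3 left out and 9 with 3 dpa replicate 2 left out. With median-of-ratios scaling it was 5, and with quantile normalization 37. Of all 10986 genes, 876 fell with median-of-ratios scaling, 1229 with quantile normalization and 605 without 7 dpa replicate 1. The counts of 5 with median-of-ratios scaling and 3 without 7 dpa replicate 1 were thus no larger a share than that of all genes. For the respiratory chain the count was 5 with 3 dpa replicate 3 left out, 8 with 3 dpa replicate 1 left out and 9 with 7 dpa replicates 1, 2 or 3 left out, and 24 with quantile normalization. The medians of these 3 lists were -0.40, -0.21 and -0.30. Immunoproteasome genes, in the interferon list, went the other way and are given below.

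Some mitotic genes fell. Of 58 tested members 15 fell and none rose, with a median of -0.56. Cyclin B1 (ccnb1), which drives entry into mitosis, read 54.1, 65.5 and 81.7 CPM at 3 dpa and 27.9, 36.4 and 30.96 CPM at 7 dpa, a change of -1.04 ± 0.19, adjusted p = 0.0026 (limma). The spindle checkpoint gene mad2l1 read 26.8, 26.9 and 33.7 CPM at 3 dpa and 13.4, 18.2 and 12.9 CPM at 7 dpa, a change of -0.94 ± 0.18, adjusted p = 0.0039. In both genes the highest 7 dpa value was that of the second library. The count of falling members was 5 with 3 dpa replicates 2 or 3 left out, 6 with 7 dpa replicate 3 left out and 7 with 7 dpa replicate 1 left out, 37 with quantile normalization and 51 without the 4 libraries that stand apart, 7 dpa replicate 2 among them. DNA replication genes gave 2 falls among 50, a share of 4.0% that was below the 7.91% of all genes. These were the cyclin E genes ccne1 (-0.97 ± 0.25) and ccne2 (-0.64 ± 0.17). The calls were lost for ccne1 without 3 dpa replicates 2 or 3 or 7 dpa replicate 2 (adjusted p = 0.060 to 0.066) and ccne2 without 3 dpa replicates 2 or 3 or 7 dpa replicate 1 (adjusted p = 0.053 to 0.062). The replication count was 0 with 3 dpa replicates 2 or 3 left out, 1 with 7 dpa replicate 1 left out and 4 with 7 dpa replicate 2 left out, and 22 without the 4 libraries. Summed levels of the replication list were 1735 to 2123 CPM at 3 dpa and 1101 to 2457 CPM at 7 dpa, the highest being in the second 7 dpa library.

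**Figure D3:**
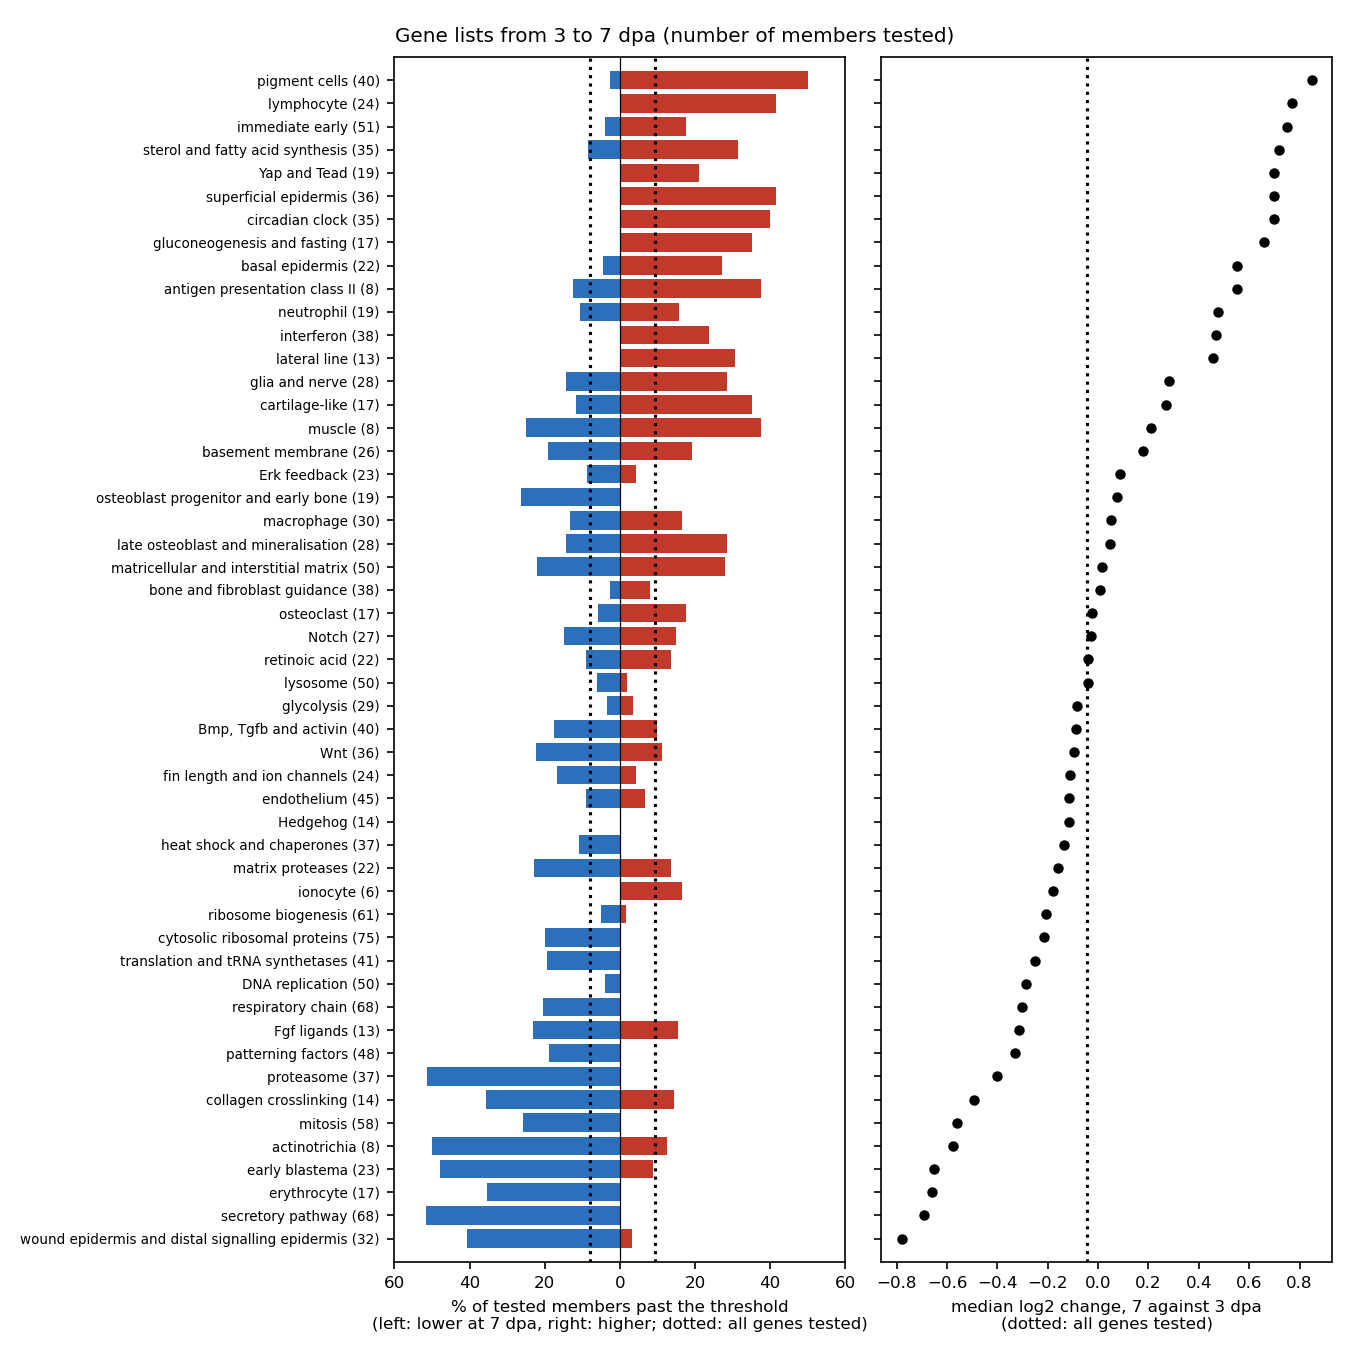
For each gene list, with its number of tested members, bars give the percent of members past the threshold (left lower, right higher at 7 dpa) and points the median log2 change. Pigment cell, superficial epidermis and lymphocyte genes lie on the right, while wound epidermis and secretory pathway genes lie on the left of the dotted values for all genes.

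The epidermal lists differed in direction. Of 32 tested genes of wound and distal signalling epidermis 13 fell and 1, cldn7a, rose, with a median of -0.78. This list shares members with those above, and the call was lost for cldn7a without 3 dpa replicate 1 or 7 dpa replicates 1 or 3 (adjusted p = 0.062 to 0.081). The number that fell was 8 with 3 dpa replicate 2 left out. In superficial epidermis, the outer barrier layer, 15 of 36 genes rose and none fell. The ictacalcin gene icn2 read 217, 195 and 229 CPM at 3 dpa and 673, 735 and 749 CPM at 7 dpa, a change of 1.75 ± 0.11, adjusted p = 1.98e-06 (limma). The protease gene capn9, a calpain, read 215, 294 and 316 CPM at 3 dpa and 607, 603 and 673 CPM at 7 dpa, a change of 1.205 ± 0.13, adjusted p = 7.43e-05. In basal epidermis 6 of 22 genes rose and fras1 fell, which lost its call without 3 dpa replicates 1 or 2 or 7 dpa replicate 3 (adjusted p = 0.079 to 0.085). The keratin gene krt15 read 1081, 1467 and 2262 CPM at 3 dpa and 5439.5, 4432 and 6894 CPM at 7 dpa, a change of 1.84 ± 0.22, adjusted p = 1.42e-04. All 3 genes were higher in every 7 dpa library. Summed basal epidermis genes amounted to 50567 to 64128 CPM at 3 dpa and 80936 to 120039 CPM at 7 dpa.

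Genes of matrix-cutting enzymes and their inhibitors moved in both directions. The membrane metalloprotease gene adam8a read 914, 713 and 646 CPM at 3 dpa and 209, 86.5 and 116 CPM at 7 dpa, a change of -2.54 ± 0.33, adjusted p = 2.88e-04 (limma). Collagenase 3 (mmp13a), which opens fibrillar collagen, read 75.7, 88.7 and 101 CPM at 3 dpa and 32.9, 25.6 and 30.4 CPM at 7 dpa, a change of -1.54 ± 0.30, adjusted p = 0.0041, and the inhibitor timp2b changed by -1.57 ± 0.24. Gelatinase mmp9 changed by -0.81 ± 0.25 and lost its call without 3 dpa replicates 2 or 3 or 7 dpa replicates 1, 2 or 3 (adjusted p = 0.058 to 0.14). The urokinase gene plaub, which activates plasmin, instead rose, at 7.05, 6.44 and 9.74 CPM at 3 dpa and 36.5, 61.6 and 29.4 CPM at 7 dpa (2.27 ± 0.30, adjusted p = 3.35e-04). Of 22 tested proteases and inhibitors 5 fell, serpine2 being the remaining one, and 3 rose, plaub and mmp30 among them. The call was lost for mmp30 without 3 dpa replicate 2 (adjusted p = 0.055), and the number that rose was 1 with 3 dpa replicate 2 left out.

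Many pigment cell genes rose. Of 40 tested members 20 rose and 1, the purine synthesis gene impdh1b (-0.85 ± 0.11), fell, with a median of 0.85. Without members kept through 7 dpa alone 18 rose. The melanin synthesis gene tyrp1b read 32.1, 29.7 and 40.1 CPM at 3 dpa and 287, 313 and 306 CPM at 7 dpa, a change of 3.13 ± 0.20, adjusted p = 1.98e-06 (limma). The melanosome scaffold gene pmela read 28.8, 27.2 and 39.9 CPM at 3 dpa and 211, 212 and 211 CPM at 7 dpa, a change of 2.71 ± 0.23, adjusted p = 1.72e-05. Tyrosinase (tyr) read 2.48, 2.77 and 1.87 CPM at 3 dpa and 18.9, 18.2 and 18.9 CPM at 7 dpa, a change of 2.55 ± 0.20, adjusted p = 8.69e-06, and dct 1.52, 1.48 and 2.06 CPM at 3 dpa and 10.8, 10.7 and 14.3 CPM at 7 dpa, a change of 2.26 ± 0.23, adjusted p = 5.08e-05. These 4 genes of black melanophores were close together within each time and did not overlap between times. For tyrp1b, as one of the largest rises, no overlap was a condition of choice. Their regulator mitfa rose, at 1.39 to 3.93 CPM at 3 dpa and 8.79 to 12.6 CPM at 7 dpa (1.78 ± 0.28).

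Some genes of the other pigment cells rose as well. The purine enzyme gene pnp4a, which serves the reflecting crystals of iridophores, read 1.27, 0.835 and 1.44 CPM at 3 dpa and 13.3, 18.4 and 15.3 CPM at 7 dpa, a change of 2.93 ± 0.30, adjusted p = 5.92e-05 (limma). Xanthophore genes, of the yellow cells, included aox5 at 24.3 to 25.6 CPM at 3 dpa and 44.1 to 75.8 CPM at 7 dpa (1.16 ± 0.20) and the transporter slc2a15b at 6.29 to 6.43 CPM at 3 dpa and 22.7 to 30.9 CPM at 7 dpa (1.88 ± 0.23). For pax7b (1.31 ± 0.33) the call was lost without 3 dpa replicate 1 or 7 dpa replicate 2 (adjusted p = 0.058 to 0.064). The pteridine synthesis gene gch2 (0.24 ± 0.28) and the early-lineage gene tfec (-0.18 ± 0.27) did not pass. Leaving out each library in turn gave 19 to 21 rising members. At 0 dpa tyrp1b read 96.9, 122 and 73.7 CPM, and pnp4a 10.1, 6.15 and 4.62 CPM.

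**Figure D4:**
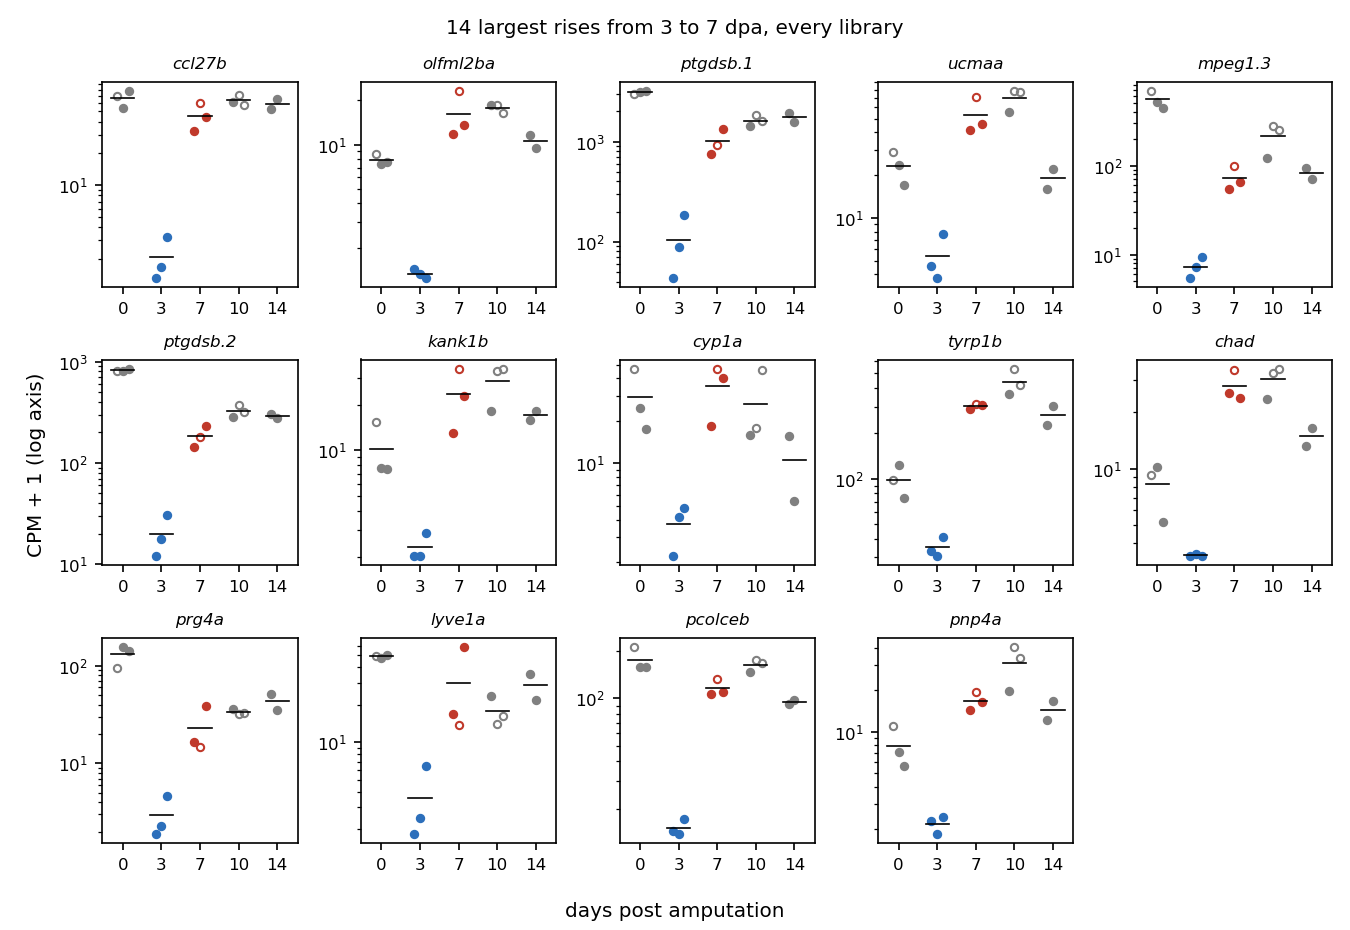
CPM plus 1 of the genes with the largest rises (log axis) in every library against days post amputation, with 3 dpa in blue, 7 dpa in red, other times in grey, bars at the means and open symbols for 4 libraries that stand apart. Every 7 dpa library lies above every 3 dpa library, which was a condition of choice. The gene olfml2ba was kept through 7 dpa alone, so the filter favoured its rise. The values of tyrp1b rise from at most 40.1 CPM to at least 287 CPM.

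Skeletal genes changed in a split. Of 28 tested genes of late osteoblasts and mineralisation 8 rose and 4 fell. Matrix Gla protein (mgp), an inhibitor of calcification, read 2.36, 2.46 and 3.58 CPM at 3 dpa and 22.6, 23.4 and 21.1 CPM at 7 dpa, a change of 2.63 ± 0.29, adjusted p = 8.87e-05 (limma). Osteopontin (spp1) read 55.4, 60.9 and 89.7 CPM at 3 dpa and 179, 205 and 182 CPM at 7 dpa, a change of 1.47 ± 0.17, adjusted p = 1.43e-04. Osteocalcin (bglap), kept through 7 dpa alone, read 0.191, 0.186 and 0.564 CPM at 3 dpa and 1.77, 8.36 and 8.73 CPM at 7 dpa. Osteopontin and osteocalcin are late products of bone cells in mammals. Without members kept through 1 time alone 7 rose and 3 fell. The call of scpp1, another acidic phosphoprotein gene (1.79 ± 0.30), held too. Among the secretory calcium-binding phosphoproteins, however, scpp5 read 15.8, 17.3 and 20.6 CPM at 3 dpa and 2.43, 3.41 and 1.65 CPM at 7 dpa, a change of -2.46 ± 0.20, adjusted p = 1.34e-05, and scpp7 75.5, 107 and 172 CPM at 3 dpa and 26.5, 24.8 and 14.8 CPM at 7 dpa, a change of -2.33 ± 0.29, adjusted p = 1.91e-04. The enamelin gene enam read 4497, 4694 and 5519 CPM at 3 dpa and 2642, 2775 and 1725 CPM at 7 dpa and changed by -1.07 ± 0.26. It, with slc20a1a, slc20a1b and ostn, depended on single libraries, with calls lost for enam without 3 dpa replicate 3 or 7 dpa replicate 3 (adjusted p = 0.053 to 0.055), slc20a1a without 3 dpa replicates 1 or 2 or 7 dpa replicate 3 (adjusted p = 0.059 to 0.065), slc20a1b without 3 dpa replicates 1, 2 or 3 or 7 dpa replicates 1 or 2 (adjusted p = 0.054 to 0.14) and ostn without 3 dpa replicates 1, 2 or 3 or 7 dpa replicates 1 or 3 (adjusted p = 0.052 to 0.11). The number of rising members was 5 with 3 dpa replicates 1 or 2 left out. Phosphate and matrix regulators phex, enpp1, phospho1 and ifitm5 did not pass, with changes of 0.50 ± 0.19, -0.32 ± 0.13, -0.09 ± 0.32 and -0.77 ± 0.35. The osteoblast factor gene sp7 read 33.8 to 75.6 CPM at 3 dpa and 45.7 to 60.2 CPM at 7 dpa.

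Some genes known from cartilage rose, although the bony rays form without it. Of 17 tested genes 6 rose and 2, col9a1a and cnmd, fell, or 1 without cnmd, kept through 3 dpa alone. The growth plate gene ucmaa, for a Gla-rich secreted protein, read 3.58, 2.77 and 6.71 CPM at 3 dpa and 40.8, 70.7 and 44.8 CPM at 7 dpa, a change of 3.34 ± 0.30, adjusted p = 2.43e-05 (limma). Chondroadherin (chad), a collagen-binding protein, read 2.41, 2.51 and 2.43 CPM at 3 dpa and 24.4, 32.8 and 23.02 CPM at 7 dpa, a change of 2.99 ± 0.25, adjusted p = 1.55e-05. The lubricin gene prg4a, which coats joint surfaces in mammals, read 0.889, 1.29 and 3.62 CPM at 3 dpa and 15.7, 13.9 and 37.4 CPM at 7 dpa, a change of 2.97 ± 0.38, adjusted p = 2.66e-04. Of these, chad was nearly constant within each time while the pools of prg4a differed more. The gene prg4a is not on this list and was named as one of the 14 largest rises. Besides ucmaa and chad, the rising members of the list were matn4, comp (1.27 ± 0.23), sox5 and sox8b.

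The largest rise of all was that of the chemokine gene ccl27b, whose mammalian relative draws T cells to skin. It read 0.318, 0.683 and 2.197 CPM at 3 dpa and 31.9, 59.2 and 43.02 CPM at 7 dpa, a change of 4.53 ± 0.30, adjusted p = 2.48e-06 (limma), and 53.1 to 77.3 CPM at 0 dpa and 51.3 to 64.9 CPM at 14 dpa. Lymphocyte genes rose beside it, 10 of 24 tested and none falling, with a median of 0.77, or 8 without those kept through 7 dpa alone. The interleukin 2 receptor gene il2rb read 5.34, 5.01 and 2.19 CPM at 3 dpa and 12.8, 14.7 and 11.97 CPM at 7 dpa, a change of 1.51 ± 0.24, adjusted p = 0.0010. The T cell kinase gene lck, at 4.102, 3.32 and 2.73 CPM at 3 dpa and 7.27, 14.9 and 6.45 CPM at 7 dpa, changed by 1.19 ± 0.30, and the lymphoid factor ikzf1 by 1.39 ± 0.42. Their highest value was in the second 7 dpa library, and calls were lost for lck without 3 dpa replicates 2 or 3 or 7 dpa replicate 2 (adjusted p = 0.051 to 0.066) and ikzf1 without 3 dpa replicates 1, 2 or 3 or 7 dpa replicate 2 (adjusted p = 0.063 to 0.12). The number of rising lymphocyte genes was 5 with 3 dpa replicates 2 or 3 or 7 dpa replicate 2 left out. Summed, the list read 163 to 184 CPM at 3 dpa and 252 to 480.3 CPM at 7 dpa.

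Genes of antigen presentation were among the rises. Of 38 tested interferon genes 9 rose and none fell. The class I gene mhc1zba read 385, 413 and 397 CPM at 3 dpa and 912, 899.6 and 969.5 CPM at 7 dpa, a change of 1.22 ± 0.08, adjusted p = 1.98e-06 (limma), and its partner b2m changed by 0.93 ± 0.12. The immunoproteasome genes psmb8a, psmb12 and psmb13a also rose, with the call lost for psmb12 without 3 dpa replicates 1 or 2 or 7 dpa replicates 2 or 3 (adjusted p = 0.066 to 0.11). Of 8 tested class II genes 3 rose and the lysosomal protease gene ctsla fell (-0.73 ± 0.15). The class II chain gene cd74a read 932, 856 and 1021 CPM at 3 dpa and 1960.3, 2253 and 1861 CPM at 7 dpa, a change of 1.11 ± 0.16, adjusted p = 5.21e-04. Macrophage genes split, 5 of 30 rising and 4 falling. The pore-forming gene mpeg1.3 read 4.45, 6.24 and 8.303 CPM at 3 dpa and 54.02, 96.9 and 63.96 CPM at 7 dpa (3.30 ± 0.32, adjusted p = 4.26e-05), while its copy mpeg1.1 read 88.4 to 98.6 CPM and 95.3 to 125 CPM. Division of reads between such copies, and between ptgdsb.1 and ptgdsb.2 or the globins, is uncertain. The lectin gene lgals2a fell (-1.19 ± 0.20), with apoeb, lgmn and slc7a7. The number of rising macrophage genes was 2 with 3 dpa replicate 2 or 7 dpa replicate 2 left out and 3 with 3 dpa replicates 1 or 3 or 7 dpa replicate 3 left out.

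Of 45 tested vessel genes 3 rose (6.67%, against 9.35% of all genes) and 4 fell (8.89%, against 7.91%). The lymphatic receptor gene lyve1a read 0.826, 1.47 and 5.44 CPM at 3 dpa and 15.9, 12.7 and 57.6 CPM at 7 dpa, a change of 2.95 ± 0.53, adjusted p = 0.0023 (limma). The lymphatic factor gene prox1a changed by 1.01 ± 0.19 and von Willebrand factor (vwf), a clotting protein of vessel linings, by 1.85 ± 0.24. The falling members were esama, aplnrb, rasip1 and ramp2, of which ramp2 changed by -1.25 ± 0.21, and the falling count was 1 with 3 dpa replicate 2 left out and 2 with 3 dpa replicate 3 or 7 dpa replicate 3 left out. The calls were lost for esama without 3 dpa replicates 2 or 3 or 7 dpa replicates 1 or 2 (adjusted p = 0.053 to 0.080), aplnrb without 3 dpa replicates 2 or 3 or 7 dpa replicates 2 or 3 (adjusted p = 0.097 to 0.14) and rasip1 without 3 dpa replicates 1 or 2 or 7 dpa replicate 3 (adjusted p = 0.057 to 0.085). Haemoglobin genes fell: hbba1 read 90.5, 122 and 227 CPM at 3 dpa and 46.01, 40.3 and 25.5 CPM at 7 dpa, a change of -1.88 ± 0.38, adjusted p = 0.0046, and hbaa1 changed by -1.85 ± 0.34. Of 17 tested erythrocyte genes 6 fell and none rose, and the falling count was 3 with 3 dpa replicates 2 or 3 or 7 dpa replicate 3 left out. The rising count was 1 with 3 dpa replicate 3 left out. Summed erythrocyte genes were 208 to 439.6 CPM at 3 dpa and 142 to 149 CPM at 7 dpa.

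Metabolic and daily-rhythm genes were among the rises. Of 35 tested sterol and fatty acid genes 11 rose and 3, fabp11a, fabp7a and fads2, fell, or 2 without fads2, kept through 3 dpa alone. The rate-limiting cholesterol enzyme gene hmgcra read 4.19, 17.1 and 9.92 CPM at 3 dpa and 81.3, 24.9 and 104 CPM at 7 dpa, a change of 2.59 ± 0.54, adjusted p = 0.0059 (limma). The second 7 dpa library gave its lowest 7 dpa value. The number of rising sterol genes was 5 with 3 dpa replicate 3 or 7 dpa replicate 3 left out and 7 with 3 dpa replicate 1 left out. Of 35 clock genes 14 rose and none fell. The repressor gene bhlhe41 read 26.9, 27.8 and 19.1 CPM at 3 dpa and 96.7, 80.9 and 89.4 CPM at 7 dpa, a change of 1.83 ± 0.16, adjusted p = 2.22e-05, and nr1d2a changed by 1.59 ± 0.31. The clock count was 7 with 3 dpa replicate 3 left out and 9 with 7 dpa replicates 2 or 3 left out. No label gives the hour of collection. The glucocorticoid-induced gene tsc22d3 rose, at 264 to 348 CPM at 3 dpa and 665 to 796 CPM at 7 dpa (1.31 ± 0.16, adjusted p = 1.54e-04). Of 17 tested fasting genes 6 rose, or 5 without pck1, kept through 7 dpa alone.

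Of 19 tested genes of the mechanosensitive Yap and Tead factors and their targets 4 rose, ccn2a, ccn2b, amotl2a and amotl2b, and none fell. The matricellular gene ccn2a read 48.8, 40.3 and 50.5 CPM at 3 dpa and 124, 238 and 172 CPM at 7 dpa, a change of 1.87 ± 0.25, adjusted p = 2.96e-04 (limma), and amotl2b, a Yap inhibitor, 113, 91.1 and 106 CPM at 3 dpa and 206, 258 and 212 CPM at 7 dpa, a change of 1.12 ± 0.19, adjusted p = 0.0019. The second 7 dpa library was the highest of all 6 for both, and the calls held without it. Immediate early genes gave 9 rises (17.6%, against 9.35% of all genes) and 2 falls (3.92%, against 7.91%) among 51. The rising count was 4 with 3 dpa replicate 2 left out and 5 with 7 dpa replicate 2 left out. The falling count was 0 with 3 dpa replicates 2 or 3 or 7 dpa replicate 1 left out, 1 with 7 dpa replicate 3 left out and 4 with 7 dpa replicate 2 left out. In klf2a, a flow-responsive factor at 638, 251 and 213 CPM at 3 dpa and 859, 3662 and 1276 CPM at 7 dpa, the change of 2.29 ± 0.62 lost its call without 3 dpa replicates 2 or 3 or 7 dpa replicate 2 (adjusted p = 0.077 to 0.092). For fosb the change was 2.08 ± 1.51, adjusted p = 0.39. The fin length list held genes of calcium, potassium and thyroid hormone signalling and of gap junctions, some of them known from fins of altered size. Among 24 tested, pcp4a, kcnma1a, cx43 and rcan2 fell (16.7%, against 7.91% of all genes) and rcan3 rose (4.17%, against 9.35%). The calcineurin regulator genes rcan2 (-1.01 ± 0.31) and rcan3 (1.57 ± 0.42) lost their calls, rcan2 without 3 dpa replicates 1 or 2 or 7 dpa replicates 2 or 3 (adjusted p = 0.056 to 0.16) and rcan3 without 3 dpa replicate 1 or 7 dpa replicate 3 (adjusted p = 0.084). The rising count of this list was 0 with 3 dpa replicate 1 or 7 dpa replicate 3 left out and 3 with 7 dpa replicate 2 left out. The channel gene kcnk5b, whose activation gives long fins, read 15.98 to 20.8 CPM at 3 dpa and 17.6 to 25.3 CPM at 7 dpa (0.20 ± 0.17; adjusted p = 0.47).

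**Figure D5:**
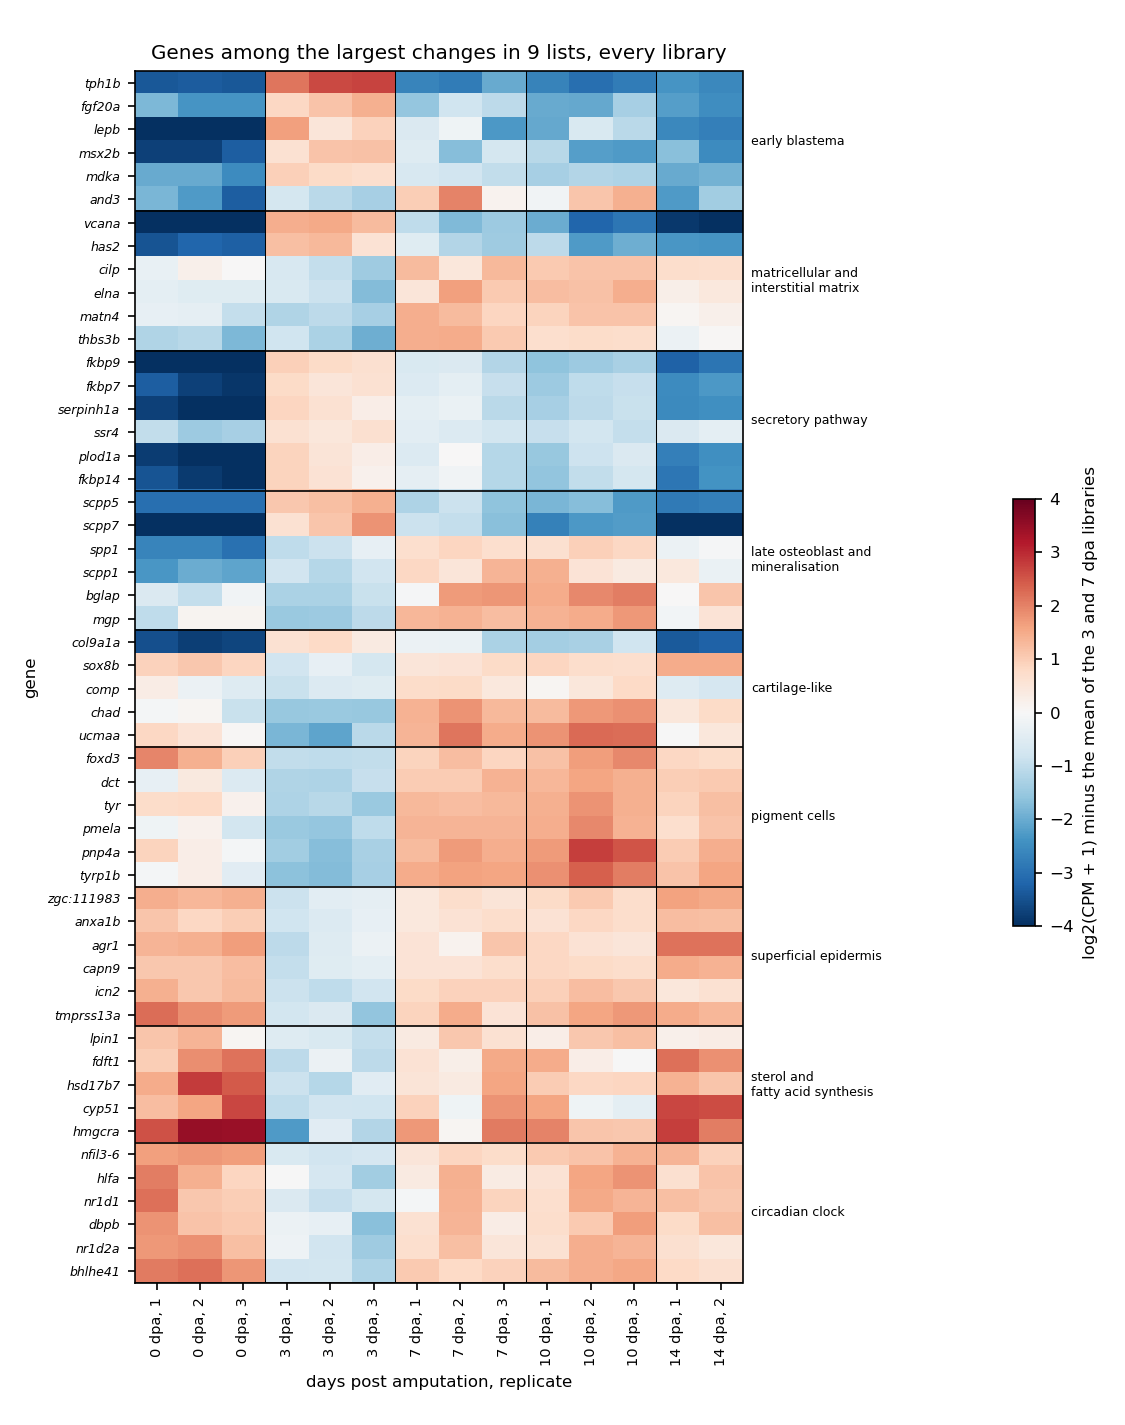
Colour gives log2(CPM + 1) of each gene (rows, grouped by list) in each of the 14 libraries (columns, by time), relative to the mean of the 3 and 7 dpa libraries, with colours saturating at 4. By their means, blastema genes other than and3 and secretory genes are highest at 3 dpa, and the pigment, superficial epidermis, sterol and clock genes shown are lowest at 3 dpa.

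A switch between these 2 times was counted where all libraries of 1 time read at least 2 CPM and all of the other under 1 CPM. By this rule 6 genes (0.0546%) went off and 12 (0.109%) went on. The genes that went off were etf1a, vipr1b, pnocb, c2cd4a, acbd7 and trh. The nociceptin precursor gene pnocb read 5.02, 5.503 and 5.0003 CPM at 3 dpa and 0.723, 0.402 and 0.529 CPM at 7 dpa, and the thyrotropin-releasing hormone gene trh 2.29, 2.89 and 2.94 CPM at 3 dpa and 0.197, 0.268 and 0.132 CPM at 7 dpa. The receptor for vasoactive intestinal peptide, vipr1b, read 9.402, 5.33 and 2.75 CPM at 3 dpa and 0.657, 0.938 and 0.331 CPM at 7 dpa. These 3 encode neuropeptides or a neuropeptide receptor. The translation termination gene etf1a, at 13.7, 8.81 and 8.12 CPM and 0.263, 0.67 and 0.199 CPM, has a near relative, etf1b, at 410.1 to 461 CPM and 268 to 412 CPM, so its reads are uncertain. Among the genes that went on, the olfactomedin-like matrix gene olfml2ba read 0.444, 0.322 and 0.25 CPM at 3 dpa and 10.7, 22.1 and 12.6 CPM at 7 dpa. The water and glycerol channel gene aqp3b read 0.127, 0.255 and 0.125 CPM at 3 dpa and 2.57, 4.02 and 4.897 CPM at 7 dpa, and the adrenergic receptor gene adra2da 0.571, 0.902 and 0.687 CPM at 3 dpa and 4.205, 3.28 and 5.56 CPM at 7 dpa. The extracellular matrix gene coch and the nucleotide sugar transporter gene slc35a3b were also among them. Several of these genes read at least 2 CPM at 0 dpa as well, when olfml2ba read 7.696, 6.35 and 6.63 CPM, aqp3b 2.698, 2.29 and 2.35 CPM, adra2da 9.52, 13.8 and 10.5 CPM and slc35a3b 11.6, 8.51 and 8.51 CPM. The gluconeogenesis gene pck1 read 33.96, 48.9 and 31.7 CPM at 0 dpa and 0.571, 0.966 and 0.624 CPM at 3 dpa and 4.99, 3.02 and 2.12 CPM at 7 dpa.

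The genes of this step were then read in comparisons of other libraries, which share with it the variances fitted over all 14 libraries. At 10 dpa against 0 dpa 1856 genes (16.9%) were called, 1567 higher (14.3%) and 289 lower (2.63%). With median-of-ratios scaling the called genes were 59.2% higher instead of 84.4%, with quantile normalization 61.2%, and the median of all genes moved from 0.16 to -0.03 with the former. Of the 869 genes that fell from 3 to 7 dpa, 333 (38.3%) were higher at 10 than at 0 dpa and 9 (1.04%) were lower. The 333 made up 21.3% of all genes higher at 10 dpa. Of the 1027 genes that rose, 136 (13.2%) were higher and 141 (13.7%) lower, and the 141 made up 48.8% of all genes lower at 10 dpa. With median-of-ratios scaling 31.3% of the falling genes were higher and 28.5% of the rising genes lower, against 10.9% and 7.53% of all genes. With each comparison fitted on its own libraries alone, 36.3% of 534 falling genes were higher and 10.1% of 733 rising genes lower, against 10.16% and 1.53% of all genes. So a larger share of the genes that fell than of all genes stood above the 0 dpa level at 10 dpa, and a larger share of those that rose stood below it. The total at 10 against 0 dpa was 1236 with 0 dpa replicate 2 left out, 1163 with 0 dpa replicate 3 left out and 1194 with 10 dpa replicate 3 left out. For example mdka read 221 to 318 CPM at 0 dpa and 508 to 568 CPM at 10 dpa, and and2 10.9 to 30.5 and 722 to 936 CPM. The keratin gene krt15 read 6757 to 7261 CPM at 0 dpa and 6283 to 7095 CPM at 10 dpa.

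From 10 to 14 dpa 950 genes (8.65%) were called, 547 higher (4.98%) and 403 lower (3.67%). Of the genes that had fallen earlier 96 (11.0%) fell further and 88 (10.1%) rose. Of those that had risen 100 (9.74%) rose further and 68 (6.62%) fell. With median-of-ratios scaling 37.9% of the called genes were higher instead of 57.6%, and with quantile normalization 42.8%. The balance within the rising genes turned with the scaling, to 72 that rose further and 105 that fell with median-of-ratios scaling, and 79 and 99 with quantile normalization. Of the genes that had fallen, 114 fell further and 44 rose with the former, and 126 and 74 with the latter. With each comparison fitted on its own libraries alone, 47 of 534 falling genes (8.80%) fell further and 12 (2.25%) rose. Of 733 rising genes 30 (4.09%) rose further and 27 (3.68%) fell. Of all genes 1.76% rose and 1.67% fell in that setting, so the share of falling genes that rose was then near that of all genes. Only 2 libraries were available at 14 dpa, and the total was 428 with 10 dpa replicate 2 left out, 328 with 10 dpa replicate 3, 96 with 14 dpa replicate 1 and 162 with 14 dpa replicate 2 left out. Individual genes at 14 dpa included pcp4a at 6.72 and 5.45 CPM and fgf20a at 1.75 and 1.27 CPM, against 3.35, 6.297 and 5.16 CPM at 7 dpa.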

How the data were processed

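RNA was sequenced in bulk from 14 libraries of fin ray tips, each a pool of 10 animals, of which the 3 at 3 dpa and the 3 at 7 dpa enter the main comparison. Per the submitters' processing notes, reads were handled with Salmon 1.4.0, cutadapt 3.5 and Trim Galore 0.6.7, with danRer11 as the genome build. The deposited table is named as TPM, but low values of all genes in a library were near-whole multiples of 1 step (93.3% to 98.4% of values up to 20 steps, within a tolerance of 0.1 step). Division by transcript length would remove such a common step, so the deposited values are treated as CPM made by the authors, and levels are not compared between genes. The step gives about 14800000 to 16000000 reads per library over the 14 libraries. At larger values fewer multiples were whole, so no count test was run.

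Genes with at least 1 CPM in 2 of the 6 libraries were transformed as log2(CPM + 1). Limma 3.58.1 in R 4.3.3 was fitted with 1 mean per time over the 14 libraries, moderated variances following mean expression, two-sided contrasts and Benjamini-Hochberg adjustment over 10986 genes. The design had named TPM, and the same test serves both units. The fit was tested on simulated data with noise drawn independently for each gene. Shifts shared by many genes in a single library were therefore not covered.

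The members and the 51 gene lists were chosen with earlier results of these data known, so list counts are descriptions. Of 2117 listed genes 1479 were tested, 210 were below the filter and 428 are not analysed here, not being matched to a symbol. Genes were named as the 14 largest rises and falls (mean of at least 5 CPM, no overlap of libraries, no clone names), up to 4 called members per list, any member of 7 lists central to the step, up to 6 switched genes per direction, genes nearest the filter, and fosb. Some genes that met these rules are not reported here. Other names were chosen after their values were seen. Alternatives were other pseudocounts, filters, scalings, variances, weights, a replicate block, only the groups compared and leaving out libraries. Intervals for counting error are not given.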

Additional observations from a re-analysis of the deposited data

How the results depend on the processing

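From 3 to 7 dpa the 228 called genes named by rule kept their direction under every alternative that tested them, and 161 kept their call (266 of all 324 genes named by rule passed the stricter filter of a mean of 5 CPM). Of 29 called genes named after their values were seen 18 kept their call. Both sets include genes kept through 1 time alone, whose direction was largely set by the filter. The counts were not made without them. The count of 1896 genes was 1834 and 1944 with pseudocounts of 0.1 and 5, 1968 with no filter, 2027 with median-of-ratios scaling and 2363 with quantile normalization. With library weights it was 3066, of which 1634 were lower, and 6332 genes were called from 0 to 10 dpa and 4994 from 10 to 14 dpa. With only the libraries of both groups, 1267 were called from 3 to 7 dpa, 534 of them lower, 1284 from 0 to 10 dpa and 376 from 10 to 14 dpa. Leaving out each library in turn gave 1324 to 1580 genes from 3 to 7 dpa (768 to 928 higher, 547 to 754 lower), 1163 to 2603 from 0 to 10 dpa and 96 to 1245 from 10 to 14 dpa, where a lone library at 14 dpa is assumed to vary like the other groups. Leaving out 4 libraries that stand apart (0 dpa replicate 1, 7 dpa replicate 2, 10 dpa replicates 2 and 3), chosen after seeing the data, gave 2592 (1229 higher, 1363 lower), 1489 and 438, with a lone library at 10 dpa. The cause of these differences was not tested. With the replicate number as a block 1638 genes were called from 3 to 7 dpa. Deviations of same-numbered libraries correlated at 0.02, -0.28 and 0.36, so the numbers were not taken to pair the samples. One read was worth 0.0624 to 0.0678 CPM, so low genes rest on few reads and the call of a gene near the filter is limited by depth.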

Other observations

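Some genes outside the lists moved from 3 to 7 dpa and were chosen here after their values were seen. The oxidase gene nox1 read 4.07, 4.37 and 3.56 CPM at 3 dpa and 19.8, 50.3 and 40.8 CPM at 7 dpa, a change of 2.83 ± 0.46, adjusted p = 0.0014 (limma), and its organiser gene noxo1a 6.48, 13.3 and 16.6 CPM at 3 dpa and 25.5, 51.2 and 66.7 CPM at 7 dpa, a change of 1.88 ± 0.37, adjusted p = 0.0043. Both calls held with each library left out. The nitric oxide synthase gene nos2a read 37.9, 30.3 and 63.4 CPM at 3 dpa and 95.1, 1263 and 214 CPM at 7 dpa (2.79 ± 0.87, adjusted p = 0.044), with the highest 7 dpa value in the second library, and its call was lost without 3 dpa replicates 1, 2 or 3 or 7 dpa replicates 2 or 3 (adjusted p = 0.070 to 0.13). At 0 dpa nos2a read 1724, 343 and 516 CPM and nox1 93.1, 42.3 and 30.9 CPM.

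The synaptotagmin gene syt9b, a calcium sensor of vesicle release, read 9.59, 13.1 and 9.301 CPM at 3 dpa and 2.103, 1.34 and 1.72 CPM at 7 dpa, a change of -2.09 ± 0.24, adjusted p = 1.11e-04 (limma). The granule protein gene scg3 read 11.4, 15.3 and 18.7 CPM at 3 dpa and 31.6, 30.3 and 36.8 CPM at 7 dpa, a change of 1.09 ± 0.16, adjusted p = 6.78e-04. The prohormone convertase gene pcsk1 read 5.21, 3.604 and 2.25 CPM at 3 dpa and 3.68, 4.96 and 2.45 CPM at 7 dpa, a change of 0.02 ± 0.30, adjusted p = 0.98. The serotonin transporter gene slc6a4a read 4.95, 5.98 and 3.31 CPM at 3 dpa and 5.98, 10.19 and 7.94 CPM at 7 dpa, a change of 0.65 ± 0.25, adjusted p = 0.088, so it did not pass while the serotonin synthesis gene tph1b fell.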
